A study of Mus musculus with 12 samples.

Results

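The constructs described here carried an sgRNA against Ctla4 and none against Pdcd1 or Adora2a. They were taken by their target set, which left Ctla4 alone or together with any of Tigit, Btla and Havcr2. This gave 48 constructs of the 689 analysed, in 8 of 101 gene combinations with 6 constructs each. No measured value entered the choice of members.

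The study was a pooled CRISPR screen in C57BL/6 mouse CD8+ T cells, in which every lentiviral construct encoded 4 sgRNAs in tandem and the fluorescent protein mKate2. T cells were stimulated for 24 h, transduced, and injected 48 h later into mice that had received tumour cells 12 days before, at 10000000 cells per mouse of which 5 to 10% were mKate2+. The deposited tables name the tumour line Hepa1-6, a mouse hepatoma. Abundance was read in the starting reference (SR), which is a frozen part of the transduced cells, and in CD8+ mKate2+ tumour-infiltrating lymphocytes (TIL) sorted 7 days after injection.

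SR and TIL had 3 replicates each, and each replicate was read over 2 regions of the construct, which makes 12 libraries in 4 groups. The first and the second sgRNA were read in region 1, the second and the third in region 2, and sgRNA 4 was not read. A TIL replicate was a pool of 3 to 4 mice with 20000 to 40000 sorted cells per tumour, to which 50 Raji cells, a human B cell line, were added per T cell as carrier for DNA extraction. That is 87.0 to 232 sorted T cells for each of 690 constructs. SR libraries were made by direct PCR and TIL libraries by a 2-step PCR, so amplification and condition cannot be told apart. The source of Cas9 is not given in the labels, and editing of the target genes was not measured. All groups, SR included, carried the same library, and 84 non-targeting constructs were its negative control. Combinations of fewer than 4 genes were filled with non-targeting sgRNAs, labelled Negative.

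CTLA-4 is an inhibitory receptor that T cells raise after activation, where it competes with the co-stimulatory receptor CD28 for CD80 and CD86 on antigen-presenting cells. The partner genes encode inhibitory receptors with other ligands. TIGIT binds CD155 (the poliovirus receptor) and competes there with the activating receptor CD226, BTLA binds the TNF receptor family member HVEM, and TIM-3, the product of Havcr2, marks exhausted T cells in tumours.

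The 48 constructs drew on 9 Ctla4 spacers, which are printed because each recurs in several constructs and can be followed across them. Each is given 5′ to 3′ as deposited, with the 10 bases next to the PAM in capitals, and the letters A to I are names given here.
Ctla4 sgRNA A: acacaacactGATGAGGTCC
Ctla4 sgRNA B: ggactgagagCTGTTGACAC
Ctla4 sgRNA C: acaggtgaccCAACCTTCAG
Ctla4 sgRNA D: acatagacccCTGTTGTAAG
Ctla4 sgRNA E: attcttctctGTGAATGTCG
Ctla4 sgRNA F: tgcccacaaaGTATGGCGGT
Ctla4 sgRNA G: actttccatgTCAGCCATAC
Ctla4 sgRNA H: ctgctagccaACACCACTGA
Ctla4 sgRNA I: tgtgatggtgAATATTCACA

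The 9 spacers had a GC content of 35.0 to 55.0%, and the longest word that any pair of them shared on either strand was 7 bases. The spacers are printed without coordinates, because the files name no genome build. The constructs seen in 2 TIL replicates are shown in full, since they are the members that recurred most often, with the Ctla4 spacer in capitals and the others in lower case.
Tigit and Ctla4 construct, sgRNA 1 (Tigit): cctatcatacgtatcctggt
Tigit and Ctla4 construct, sgRNA 2 (Ctla4): GGACTGAGAGCTGTTGACAC
Tigit and Ctla4 construct, sgRNA 3 (Negative): ccggtcatgcggcgaaaccg
Tigit and Ctla4 construct, sgRNA 4 (Negative): tatctcgcgagcgagttcac
Havcr2 and Ctla4 construct, sgRNA 1 (Havcr2): ttgttacagccttattacac
Havcr2 and Ctla4 construct, sgRNA 2 (Ctla4): ACATAGACCCCTGTTGTAAG
Havcr2 and Ctla4 construct, sgRNA 3 (Negative): acatcttaggttatgcggcg
Havcr2 and Ctla4 construct, sgRNA 4 (Negative): aaaccgatcgcgagtgcgcg

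Library totals were 9963617 to 25646820 scaled reads in SR and 8288404 to 23012713 in TIL, where a scaled read is the authors' rescaled and rounded read number. All 48 constructs were present in every SR library, at a mean level of 67.1 to 4469 CPM with a median of 1128 CPM, where CPM are scaled reads brought to a common library total. In the TIL libraries their values fell into separate ranges. No value lay between 258 and 8781 scaled reads, and detection in a TIL replicate was therefore set as more than 1000 scaled reads in each of the regions. The threshold is one chosen with the data in view.

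Most Ctla4 constructs of this set were not recovered from the tumours, and those that were seldom recurred. The members were detected in 17 of 144 cases (48 constructs in 3 TIL replicates), that is 5, 3 and 9 constructs in TIL 1, 2 and 3, where 11.3%, 8.85% and 14.1% of all constructs were detected. This is 11.8% ± 6.36 (SD, n = 3 replicates; Wilson 95% interval of the pooled share 7.50 to 18.1%, for counting error only), and detection over all constructs was 11.4%. Non-targeting constructs were detected in 6.35% ± 4.18 of their 252 cases (Wilson interval 3.95 to 10.1%). The interval of the members thus overlapped that of the non-targeting constructs and held the share of the whole library. The non-targeting constructs started lower, at a median SR level of 806 CPM against 1128 CPM for the members, and no allowance was made for this.

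Of the 48 constructs, 33 were detected in 0 replicates, 13 in 1, 2 in 2 and 0 in 3. The 15 seen at least once compare with 26.3% of all constructs. Of all 689 constructs, 508 were detected in 0 replicates, 132 in 1, 43 in 2 and 6 in 3. TIL 1 and TIL 2 shared 1 detected member, TIL 2 and TIL 3 shared 1, and TIL 1 and TIL 3 shared 0. Over all constructs the shared counts were 29, 14 and 18 in the same order, with 78, 61 and 97 detected in TIL 1 to 3. Whether members recurred less often than the library was not tested. Where a member was detected it was usually abundant: 16 of the 17 cases lay above their SR level. CPM are shares of a library, so constructs that remain rise as a share when most others are lost. The same count over all detected constructs is not given here, and the count is not read as a trait of the members. The authors' deposited log2 ratios put members at least 2-fold up in both regions in 8 of 144 cases (5.56%), against 7.45% of all cases. By replicate these were 3, 2 and 3 members, beside 8.71%, 7.55% and 6.1% of all constructs.

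With Ctla4 as the only target, 2 of 6 constructs were detected, both in TIL 3 only. The construct with sgRNA E held 49581, 56730 and 45344 scaled reads in region 1 and 34873, 45289 and 23330 in region 2 of SR 1 to 3. In TIL 1 to 3 it held 7, 219 and 173212 in region 1 and 9, 0 and 85639 in region 2. It was therefore near absent from the first pair of TIL pools and 2.07 higher than in SR on the log2(CPM + 1) scale in TIL 3.

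The Ctla4-only construct with sgRNA B behaved alike across the pools. Its SR values were 29253, 35642 and 30736 in region 1 and 22629, 21276 and 14209 in region 2. Its TIL values were 2, 2 and 92406 in region 1 and 0, 0 and 33201 in region 2, a log2 change of 1.57 in TIL 3. The other Ctla4-only constructs, with sgRNAs A, D, G and H, held between 0 and 5 scaled reads in all TIL libraries.

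Ctla4 with Tigit contained the construct with the highest change among the 48. It paired sgRNA B with the Tigit spacer printed above and started low, at 192 CPM, rank 635 of 689. Its SR values were 10913, 3371 and 2951 scaled reads in region 1 and 4336, 1055 and 1420 in region 2. Its TIL values were 295580, 22952 and 0 in region 1 and 224894, 18584 and 0 in region 2.

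Both regions of this construct were thus high in TIL 1 and TIL 2 and empty in TIL 3. Its CPM were 32.3-fold (region 1) and 59.9-fold (region 2) above SR in replicate 1, and 7.50-fold and 17.4-fold above SR in replicate 2. The log2 changes of 5.45, 3.50 and -7.06 averaged 0.63 ± 3.82 (SE, limma, n = 3; adjusted p = 0.881). Relative to the non-targeting constructs the change was 9.05 ± 3.86 (adjusted p = 0.142). With a replicate left out it ran from 6.53 to 13.21, the latter without replicate 3 (limma, adjusted p = 0.0304). Replicate 3 was the only one in which this construct was not detected, so leaving it out favours a pass and gives no support.

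Another construct of this pair, with sgRNA H and 1602 CPM in SR, was detected in TIL 1 alone. It held 61312, 258 and 2 scaled reads in region 1 of TIL 1 to 3 and 45405, 4 and 0 in region 2, a log2 change of 0.95 in TIL 1. A construct with the same sgRNA B and another Tigit spacer, at 1260 CPM in SR, was detected in no TIL replicate and reached at most 67 scaled reads. These constructs, which share a Ctla4 spacer and differ in the Tigit spacer, therefore differed in detection.

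Ctla4 with Btla was the combination with no detected construct, 0 of 18 cases, which allows a share of up to 16.7%. The highest of its 36 TIL values was 28 scaled reads. Its 6 constructs started at 279 to 1308 CPM, and their median SR level of 598 CPM was the lowest of the 8 combinations.

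Ctla4 with Havcr2 had 1 construct that accounted for both of its detected cases. This construct, printed above, held 45004, 46635 and 48146 scaled reads in region 1 and 27766, 32400 and 19689 in region 2 of SR. Its TIL values were 7, 131082 and 106718 in region 1 and 3, 62660 and 28976 in region 2. It was absent from TIL 1 and moderately above SR in the other pools, by 3.10-fold and 1.91-fold in replicate 2 and 2.33-fold and 1.77-fold in replicate 3 (CPM of region 1 and region 2).

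Its log2 changes of -10.40, 1.28 and 1.02 averaged -2.70 ± 3.60 (SE, limma; adjusted p = 0.516). Without replicate 1 the mean was 1.15 and passed the test (limma, adjusted p = 0.00554). Replicate 1 was the only one in which this construct was not detected, so leaving it out favours a pass and gives no support. A second Havcr2 and Ctla4 construct had the same Ctla4 sgRNA D and another Havcr2 spacer. It was the most abundant member in SR, at 4469 CPM, and held at most 27 scaled reads in any TIL library.

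Among the 3-gene sets, Btla, Ctla4 and Tigit had 3 detected constructs, all in TIL 3 only. The construct in the order Btla, Tigit, Ctla4 with sgRNA A started at 396 CPM and held 167613 and 58560 scaled reads in regions 1 and 2 of TIL 3, which is 15.0-fold and 22.5-fold above SR in CPM. In TIL 1 and TIL 2 it held 2 in region 1 and 0 in region 2. This was the largest log2 change in TIL 3 among the members, 4.19.

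The construct in the order Ctla4, Tigit, Btla, also with sgRNA A, held 566931 and 57336 scaled reads in TIL 3, a log2 change of 2.19. The construct in the order Tigit, Ctla4, Btla with sgRNA G held 83103 and 24568 there, a log2 change of 0.22 that left it close to its starting level. Btla, Ctla4 and Havcr2 had 1 detected construct, with sgRNA F, which held 194687 and 158770 scaled reads in TIL 2 (log2 change 1.71) and 2 to 8 in the other TIL libraries.

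Ctla4, Havcr2 and Tigit also had 3 detected constructs, in different pools. In TIL 1 the construct in the order Tigit, Havcr2, Ctla4 with sgRNA E held 160729 and 124730 scaled reads, and the construct in the order Havcr2, Tigit, Ctla4 with sgRNA C held 147680 and 82363. Their log2 changes there were close to each other, at 2.84 and 2.87, and both held 0 to 4 scaled reads in TIL 2 and TIL 3. In TIL 3 the construct in the order Ctla4, Havcr2, Tigit with sgRNA A held 206227 and 83043, a log2 change of 1.15.

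The 4-gene set of Btla, Ctla4, Havcr2 and Tigit had 3 detected constructs, each in 1 replicate. With sgRNA F the construct held 160404 and 156024 scaled reads in TIL 1 (log2 change 1.42), and with sgRNA C it held 52118 and 20607 in TIL 3 (1.03). With sgRNA A it held 19731 and 8781 scaled reads in TIL 3, which was below SR (log2 change -1.27) and was the only detected case that fell below its starting level. By the authors' deposited log2 ratios no construct of the 4-gene set was at least 2-fold up in both regions. In CPM the construct with sgRNA F was 2.37-fold and 3.04-fold above SR in regions 1 and 2 of TIL 1.

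In 4 cases a member exceeded 1000 scaled reads in 1 region and not in the other, against 3.19% of all cases. A Tigit and Ctla4 construct with sgRNA H and 1686 CPM in SR held 31 scaled reads in region 1 and 494774 in region 2 of TIL 1, and 58 and 148103 in TIL 2. This construct was named after its values were seen. In TIL 1, the Ctla4, Tigit, Btla construct with sgRNA A held 15 and 125120 and the Tigit, Ctla4, Btla construct with sgRNA G held 299854 and 14, so the region that was high differed between constructs. Each region's pair of spacers belonged to 1 construct only, and whether these reads came from that construct was not tested.

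As a share of all reads, the members made up 5.85 to 6.15% of SR, slightly under their 6.97% of the constructs. In TIL they made up 5.23 and 8.73% of regions 1 and 2 in replicate 1, 1.52 and 2.41% in replicate 2, and 6.46 and 4.83% in replicate 3. The share thus fell below SR in both regions in TIL 2 only, where 3 members were detected.

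Detected cases were also counted by partner gene. With Tigit in the set 12 of 72 cases were detected (16.7%), and without it 5 of 72 (6.94%). By replicate these were 5, 1 and 6 with Tigit and 0, 2 and 3 without it, so the order was reversed in TIL 2, and the difference was not tested. With Btla the count was 7 of 72 (9.72%) against 10 of 72 without (13.9%), and with Havcr2 9 of 72 (12.5%) against 8 of 72 (11.1%). The Wilson intervals with and without Tigit were 9.80 to 26.9% and 3.00 to 15.2%. They are for counting error only and leave out the spread between TIL pools, so their overlap is no test of the difference. Median SR levels were 1159 CPM with Tigit and 1112 CPM without it, and mean SR levels 1370 and 1135 CPM. The part of starting abundance in this difference was not tested.

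Starting abundance went with detection. Of the 16 members with the lowest SR level (67.1 to 405 CPM) 3 of 48 cases were detected (6.25%), of the middle 16 (549 to 1327 CPM) 4 of 48 (8.33%), and of the highest 16 (1367 to 4469 CPM) 10 of 48 (20.8%). In TIL 3 the detected members had a median SR level of 2121 CPM and the others 840 CPM, and in TIL 2 these were 1937 and 1062 CPM. In TIL 1 the order was the other way, 1127 CPM for the detected and 1199 CPM for the others. Over all constructs the detected started higher in every replicate, so this was not particular to the members. Those medians were 1689 and 1128 CPM in TIL 1, 1609 and 1019 CPM in TIL 2, and 2178 and 939 CPM in TIL 3. The part of starting abundance in the results below was not tested.

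Among the Ctla4 spacers, A was detected in 4 of 21 member cases, B in 3 of 21, C in 2 of 12, D in 2 of 18, E in 2 of 12, F in 2 of 9, G in 1 of 9, H in 1 of 27 and I in 0 of 15, which allows a share of up to 20.0%. Constructs with sgRNA I also had the lowest median SR level, 300 CPM. The same spacers occur in Ctla4 constructs that also target Pdcd1 or Adora2a, and there I was detected in 2 of 36 cases, H in 7 of 27 and A in 9 of 33. Members other than the printed Havcr2 and Ctla4 construct that carry sgRNA D were detected in 0 of 15 cases, and all other constructs of the library that carry it in 7 of 51. No other construct of the library carried both target spacers of either printed construct. By slot, Ctla4 in slot 1 was detected in 5 of 63 cases, in slot 2 in 8 of 57, in slot 3 in 3 of 21 and in slot 4 in 1 of 3.

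Construct by construct, the loss from SR to TIL was the main change. With limma on log2(CPM + 1), 32 of the 48 fell in TIL (Benjamini-Hochberg over 689 constructs), where 72.6% of all constructs fell. None rose: 0 of 48 passed in the higher direction, with 0 also at an unadjusted p under 0.05, against 0.29% of all constructs. The members' changes ran from -11.72 to 0.63 with a median of -8.14. The median over all constructs was -8.56 and that of the non-targeting constructs -8.98. With every sample centred on the median of all constructs, which removes that shift, 3 members (6.25%) were lower and 17 (35.4%) higher, beside 13.2% lower and 33.2% higher of all constructs.

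All 32 that fell were among the 33 never detected. The lowest changes belonged to the Havcr2 and Ctla4 construct with sgRNA D that was never detected (-11.72 ± 0.23, SE), the Ctla4, Tigit, Havcr2 construct with sgRNA E (-11.16 ± 0.15) and the Ctla4, Havcr2 construct with sgRNA H (-10.52 ± 0.11). They started at 4469, 2751 and 1643 CPM. Over the 33 members never detected, log2 SR level and change had a Spearman correlation of -0.83 and a Pearson correlation of -0.79, given as a description across constructs that share libraries and a change that contains the SR level.

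Relative to the mean of the non-targeting constructs, 10 of 48 members fell (24.8% of all constructs fell by the same test). All 10 started above the members' median, at 1143 to 4469 CPM, and none was detected in a TIL replicate. With TIL values near 0, a change is close to the negative of the log2 SR level. The high start of these 10 is therefore largely built into the measure and is not a separate result. Without replicate 1 or without replicate 2 the count was 0, and without replicate 3 it was 11. In the higher direction 1 of 48 passed, against 4.93% of all constructs.

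The member that passed in the higher direction was the Tigit and Ctla4 construct with sgRNA C, which had the lowest SR level of the 48. Its SR values were 2409, 2176 and 1453 scaled reads in region 1 and 1654, 710 and 176 in region 2, and its TIL values 5, 15 and 2 and then 0, 0 and 0. It was lost from TIL like most of the others, with a log2 change of -5.70, which is 2.72 ± 0.54 (SE) above the non-targeting constructs (limma, adjusted p = 0.0254). A construct near 0 in TIL comes out higher in this comparison the lower it started. This construct no longer entered the test when constructs under 100 CPM in SR were left out. No member was higher without replicate 1 or without replicate 2.

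The mean change of the 48 members lay above that of the non-targeting constructs by 0.80, 0.40 and 0.62 in replicates 1, 2 and 3, on average 0.61 ± 0.20 (SD, n = 3, log2 scale). The same measure over all 605 targeting constructs was 0.57 ± 0.31, and over the 42 constructs against Tigit, Btla and Havcr2 without Ctla4 it was 0.58 ± 0.42. Constructs that combine Ctla4 with Adora2a gave 0.58 ± 0.11 and those that combine it with Pdcd1 0.69 ± 0.52. These means lay within each other's spread. As medians over constructs the members were at 0.21, 0.14 and 0.59 in replicates 1 to 3 (0.31 ± 0.24), and all targeting constructs at -0.23, 0.03 and -0.06 (-0.09 ± 0.13). The median was 0.03 ± 0.05 for Tigit, Btla and Havcr2 without Ctla4, -0.04 ± 0.17 with Adora2a added and -0.15 ± 0.17 with Pdcd1 added, so the members' median was above the others in every replicate, with no test of the difference. Detected shares were also near each other, at 11.9% for Tigit, Btla and Havcr2 without Ctla4, 11.1% with Adora2a added and 14.3% with Pdcd1 added.

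Taking the 6 constructs of a combination together, none of the 8 combinations differed from the non-targeting constructs. Each combination was given by the mean log2(CPM + 1) over its constructs less that of the non-targeting constructs, TIL minus SR. In limma with Benjamini-Hochberg adjustment over 101 combinations, 0 of 8 passed in either direction, as did 0% of all combinations, and at an unadjusted p under 0.05 the counts were 0 of 8 and 17 of 101. The values of 5 of 8 were above 0, as were 66 of 101, and the medians were 0.62 and 0.42. None of the 8 had the same sign in all 3 replicates, which 27 of 101 had.

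Ctla4 with Tigit had the highest value of the 8, rank 5 of 101, with 5.20, 3.59 and -0.65 in replicates 1 to 3 and a mean of 2.71 ± 1.39 (SE; 95% interval -0.52 to 5.94; adjusted p = 0.388). Replicate 3 stood apart as the only one below 0. With a replicate left out the value ran from 1.47 to 4.39. It passed without replicate 3 (limma, adjusted p = 0.0299), a choice that favours a pass and gives no support. With the authors' deposited log2 ratios it was 2.97 (limma on the 3 ratios against 0, adjusted p = 0.0261). That is another test than the main one, because each ratio sets a TIL library against the SR of the same number. The replicate numbers do not pair the samples. Of its 6 constructs, the printed one and both with sgRNA H supplied every value above 1000 scaled reads.

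Ctla4 alone was at -0.72, -0.14 and 2.82, a mean of 0.65 ± 0.88 (interval -1.39 to 2.70; adjusted p = 0.724). Ctla4 with Btla was at -0.52, 0.02 and -1.09, a mean of -0.53 ± 0.50 (interval -1.70 to 0.64; adjusted p = 0.662). Ctla4 with Havcr2 was at -1.49, 0.71 and -0.51, a mean of -0.43 ± 0.65 (interval -1.94 to 1.09; adjusted p = 0.733). Ctla4 alone and Ctla4 with Havcr2 were each highest in a replicate in which a construct was detected. With the median over constructs in place of the mean, all 3 passed limma. The values were 0.22 for Ctla4 (limma, adjusted p = 0.0488), 0.54 for Ctla4 with Btla (adjusted p = 0.00341) and -0.82 for Ctla4 with Havcr2 (adjusted p = 0.000872). The median turned the direction for Ctla4 with Btla. The share of all 101 combinations that passed with the median is not given here. Most constructs of these sets were undetected in every TIL replicate, so the median rests on TIL values near 0. Their median SR levels were 774, 598 and 1544 CPM in the same order, and the part of starting level was not tested.

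The larger sets were also highest in the replicate with the most detected constructs. Btla, Ctla4 and Tigit was at 0.85, -1.36 and 3.97 (mean 1.15 ± 1.21, adjusted p = 0.680), and the 4-gene set at 1.15, -0.42 and 1.98 (0.90 ± 0.65, adjusted p = 0.578). Ctla4, Havcr2 and Tigit was at 2.74, -0.92 and -0.04 (0.59 ± 0.89, adjusted p = 0.733), and Btla, Ctla4 and Havcr2 at -0.78, 1.68 and -1.52 (-0.21 ± 0.85, adjusted p = 0.892). All 8 intervals included 0, and with 3 replicates they were between 2.34 and 6.46 wide on the log2 scale.

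The authors' deposited table of constructs up 2-fold gives a log2 enrichment for each combination. For these 8 the highest was 2.78 for Ctla4 alone in replicate 3, from 2 of 6 constructs, followed by 2.28 for Ctla4, Havcr2 and Tigit in replicate 1, also from 2. The authors' deposited table lists Ctla4 with Tigit at 1.69 in replicate 1 and 1.90 in replicate 2, from 1 construct each. It was the printed construct both times. The table lists Btla, Ctla4 and Havcr2 at 1.90 in replicate 2 and Btla, Ctla4 and Tigit at 2.20 in replicate 3. The authors' deposited table gives Ctla4 with Btla, Ctla4 with Havcr2 and the 4-gene set 0 in every replicate. For these 8 combinations a 0 stands where no construct was up 2-fold, and it does not mean a share equal to the library's. Ctla4 with Tigit was the combination of the 8 listed above 0 more than once.

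What Ctla4 added to a set was tested directly on 7 pairs of combinations that differ by Ctla4, and no difference passed with the mean over constructs. Adding Ctla4 to Tigit changed the value from -0.45 to 2.71, a difference of 3.16 ± 1.35 (SE; 4.45, 4.86 and 0.18 in the replicates; 95% interval -0.08 to 6.41; limma, adjusted p = 0.301 over 248 nested pairs). It was above 0 in 3 of 3 replicates. In SR, Ctla4 with Tigit was already below Tigit alone, at -1.53, -1.81 and -2.01 in replicates 1 to 3. In TIL it stood at 2.92, 3.05 and -1.83 against Tigit alone, so in replicate 3 it was lower in both conditions. The part of the lower start in the difference was not tested. Without replicate 1, 2 or 3 the difference was 2.52, 2.32 and 4.66 (limma, adjusted p = 0.596, 0.682 and 0.0257). Adding Ctla4 to Havcr2 changed the value from 1.75 to -0.43, a difference of -2.18 ± 1.04 (adjusted p = 0.338), below 0 in 3 of 3 replicates. It ran from -3.21 to -1.10 with a replicate left out and was -0.39 with the median over constructs (limma, adjusted p = 0.176).

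The other differences on adding Ctla4 were 1.34 ± 1.11 to Btla, Havcr2 and Tigit, 0.02 ± 0.52 to Btla, -0.14 ± 0.93 to Btla and Havcr2, -0.68 ± 1.53 to Btla and Tigit, and -1.37 ± 1.15 to Havcr2 and Tigit. With the median over constructs the first of these passed, at 1.73 (limma, adjusted p = 0.00719). Thus 3 of 7 means were above 0, and whether the pairs differed from each other was not tested. All 7 intervals included 0. Together they reached from -4.68 to 6.41, so similar action of the sets with and without Ctla4 was not shown either.

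Adding a partner to a Ctla4 set gave 12 further pairs. Tigit gave a difference above 0 in 4 of 4 pairs, from 1.02 to 2.06 with a median of 1.40, and 3 of those 4 were below 0 in replicate 2 (lowest adjusted p = 0.702). Btla gave 2 of 4 above 0 with a median of -0.48, and Havcr2 1 of 4 with a median of -0.67. The largest in size was Havcr2 added to Ctla4 and Tigit, -2.12 ± 1.28 (adjusted p = 0.508). Tigit added to Ctla4 gave 2.06 ± 2.32, from 5.92, 3.73 and -3.47 (adjusted p = 0.729), and Tigit added to Btla and Ctla4 gave 1.68 ± 1.59 (adjusted p = 0.702).

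Adding Pdcd1 or Adora2a to the 8 combinations, where the set stayed within 4 genes, gave 7 pairs each. Pdcd1 gave 4 of 7 above 0, with -3.25 ± 1.29 to Ctla4 and Tigit (adjusted p = 0.287), 1.98 ± 1.35 to Btla and Ctla4 (adjusted p = 0.551) and 1.73 ± 0.68 to Ctla4 and Havcr2 (adjusted p = 0.287), the last of which passed with the median over constructs at 0.72 (limma, adjusted p = 0.0138). Adora2a, which encodes an adenosine receptor, gave 3 of 7 above 0. Its difference on Btla and Ctla4 was the largest of all 33 pairs, 3.50 ± 0.91, from 5.16, 3.47 and 1.86 (95% interval 1.32 to 5.67; unadjusted p = 0.00707, limma, adjusted p = 0.175). With the median over constructs it was 0.64 (limma, adjusted p = 0.645). Adora2a on Ctla4 and Tigit gave -2.29 ± 1.78 (adjusted p = 0.613), and on Ctla4, Havcr2 and Tigit -1.55 ± 1.52 (adjusted p = 0.720).

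Over all 33 pairs 0 passed, as in all 248 (0%), and 3 of 33 had an unadjusted p under 0.05 against 42 of 248. Of the 33, 17 were above 0 and 6 had 1 sign in all replicates, against 126 and 81 of 248. The pairs share combinations and non-targeting constructs and are not independent of each other.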

How the data were processed

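Read pairs of spacers were tabulated per construct in 12 libraries. Bowtie2 is named in the submitters' processing notes, with no version or role, and no genome build was named. The deposited scores are reads that the authors scaled by an unstated factor and rounded to whole numbers, so count models were not applied. The deposited log2 columns are the authors' TIL over SR ratios, which were recovered with 10 added to both values within 5.00e-05. SR columns carry no replicate number and took the number of the TIL library in the same table. No sample was left out or imputed.

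Scores were divided by library totals (CPM), and log2(CPM + 1) was averaged over the regions, which are read-outs of 1 DNA sample. This scale understates the loss of a construct near 0, because a value of 0 has no depth below it. Tests used limma 3.58.1 (R 4.3.3), with p-values adjusted by Benjamini-Hochberg over all constructs, combinations or nested pairs, at 0.05, TIL against SR, 3 replicates each. Replicates are pools of mice in TIL, while nothing in the labels says that the SR replicates were separate cultures, so their spread may be technical. The procedure was tested on simulated data. Summaries used Python 3.11.15, pandas 2.3.3 and scipy 1.17.1.

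The text names all 8 combinations, every member detected or at least 2-fold up in a replicate, every member past limma in the higher direction, the 3 with the lowest change, and for nested pairs those that add Ctla4 and the 3 largest of each other kind. Members, lists, threshold and tests were chosen with earlier results of these data known. Same-numbered SR and TIL samples did not deviate together (correlations of 0.065, -0.065 and 0.073 over 689 constructs), so no block was used. The alternatives concerned the pseudocount, the region, an SR filter, centring, the block, left-out replicates, the median over constructs, the authors' log2 ratios and the detection rule; averaging CPM before the log was added after seeing the data.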

Additional observations from a re-analysis of the deposited data

How the results depend on the processing

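The counts of calls among the 48 constructs depended on the scaling. With each sample centred on the median of all constructs, which removes a shift of -8.56, 3 members were lower and 17 higher in TIL (6.25% and 35.4%, against 13.2% and 33.2% of all constructs), in place of 32 and 0. With 1 replicate left out the counts were 33 to 39 lower and 0 to 1 higher, the 1 being the printed Havcr2 and Ctla4 construct without replicate 1. Relative to the non-targeting constructs, 10 were lower and 1 higher. These became 0 to 11 and 0 to 3 with a replicate left out, and 0 and 0 with the replicate block, although the replicate numbers do not pair the samples. The 3 were Tigit and Ctla4 constructs with sgRNAs B, C and H, without replicate 3. The construct with H was the one at 1686 CPM in SR, detected in no replicate and high only in region 2 of TIL 1 and TIL 2. Whether those reads came from it was not tested. The higher count was 2 with a pseudocount of 10 or with region 1 only, and 0 with the SR filter. Detected cases were 17 at thresholds of 300 and 3000, 21 when either region sufficed, and 8 to 14 with a replicate left out. A 4-fold threshold left 5 of 8 cases. The mean of the members above non-targeting was 0.36 with a pseudocount of 10, 0.31 as a median, and 0.51 to 0.71 with a replicate left out.

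For combinations, adjusted p ranged from 0.000872 to 0.973 over the alternatives. The median over constructs gave 0.54 for Btla and Ctla4 (adjusted p = 0.00341), turning its direction, 0.22 for Ctla4 (adjusted p = 0.0488), -0.82 for Ctla4 and Havcr2 (adjusted p = 0.000872) and -0.21 for Ctla4, Havcr2 and Tigit; the median leaves out the few abundant constructs. Ctla4 and Tigit passed with the replicate block (2.71, adjusted p = 0.0399) and with the authors' log2 ratios (2.97, adjusted p = 0.0261). Both alternatives treat same-numbered SR and TIL samples as pairs, although the replicate numbers do not pair the samples. With a replicate left out, Ctla4 and Tigit lay between 1.47 and 4.39, Ctla4 between -0.43 and 1.34, Btla and Ctla4 between -0.80 and -0.25, Ctla4 and Havcr2 between -0.997 and 0.10, Btla, Ctla4 and Havcr2 between -1.15 and 0.45, Btla, Ctla4 and Tigit between -0.25 and 2.41, Ctla4, Havcr2 and Tigit between -0.48 and 1.35, and the 4-gene set between 0.36 and 1.57.

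Of the 33 pairs, 4 were higher and 4 lower with the median over constructs, and the share of all 248 pairs is not given here. The higher ones included Ctla4 added to Btla, Havcr2 and Tigit (1.73) and Pdcd1 added to Ctla4 and Havcr2 (0.72). With a replicate left out the counts were 0 to 1 each. Without replicate 3, Ctla4 added to Tigit (4.66) was higher and Btla added to Ctla4 and Tigit (-4.65) lower. Adding Ctla4 gave 0.34 to Btla and Tigit with the median, 0.21 to Btla and Havcr2 and -0.055 to Btla with region 2 only, all turned. With a replicate left out, adding Ctla4 gave -2.38 to 0.81, -0.79 to 0.49 and -0.10 to 0.17 for these sets and -2.23 to 0.064 for Havcr2 and Tigit, and adding Tigit to Btla and Ctla4 gave -0.0081 to 3.21.

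Of the 13 constructs detected in 1 replicate, 10 turned, relative to non-targeting, with a replicate left out. The ranges were -2.11 to 2.22, -3.22 to 3.83 and -1.09 to 3.93 for the 4-gene constructs with sgRNAs A, F and C, -1.55 to 3.92 and -1.28 to 4.54 for Ctla4 with B and E, -1.34 to 4.83 for Tigit and Ctla4 with H, -2.67 to 4.21 for Btla, Ctla4 and Havcr2 with F, and -2.62 to 3.22, -1.72 to 5.19 and -1.30 to 5.41 for Ctla4, Havcr2 and Tigit with A, E and C. The 3 Btla, Ctla4 and Tigit constructs stayed above 0, at 0.25 to 6.24 and 0.81 to 7.03 with sgRNA A and 1.11 to 6.33 with G. Their low ends came without replicate 3, the only replicate in which they were detected. The 0.81 and 1.11 then rest on TIL 1 values high in 1 region only, 15 and 125120 and 299854 and 14 scaled reads. The construct at 0.25 held 2 and 0 scaled reads in each of TIL 1 and TIL 2 and started at 396 CPM. With a pseudocount of 10 the 4-gene construct with sgRNA A was at -0.041. The cause of these changes was not tested beyond the construction of each alternative. The depth in reads is unknown, since the scaling factor is unstated.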
